A study of Mus musculus with 7 samples.

Results

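The galectin family was examined through 9 genes (Lgals1, Lgals2, Lgals3, Lgals3bp, Lgals4, Lgals7, Lgals8, Lgals9 and Lgals12). Members were all probe sets of the deposited table whose single platform gene symbol was one of these 9, which gave 13 of the table's 45101 probe sets. The series as a whole had probe sets for 18193 genes. Lgals1, Lgals2, Lgals8 and Lgals12 had 2 probe sets each and the other 5 genes had 1. The 7 arrays, all Affymetrix whole-genome mouse arrays, carried RNA that had been amplified from 1800 to 10000 cells sorted out of bone marrow. The mice were wild-type C57Bl/6J animals, young adults aged 6 to 12 weeks. Cells on 4 arrays were CD45-Lin-CD54+CD31-BP1+ and carry the label stromal cells (stromal 1 to 4 here). Cells on the other 3 arrays were CD45-Lin-CD54-CD31+ and carry the label endothelial cells (endothelial 1 to 3 here). All values below are deposited log2 expression values, and all differences are stromal minus endothelial on that scale.

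Galectins are lectins that bind beta-galactosides through a conserved carbohydrate recognition domain. Prototype galectins hold a single such domain, galectin-3 joins its domain to a long flexible N-terminal tail, and the tandem-repeat galectins hold a pair of different domains in a single chain. They are made without a signal peptide, leave the cell by a non-classical route and cross-link glycoproteins at the cell surface and in the matrix. In the bone marrow, galectin-1 is known as a stromal ligand of the pre-B cell receptor, which it clusters together with integrins at the contact between stromal and pre-B cells.

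The gates and the arrays' common features were checked first. Enpep (BP1) lay at 11.85 to 12.28 on stromal and 4.32 to 5.81 on endothelial arrays, Icam1 (CD54) at 10.31 to 11.02 on stromal and 4.77 to 5.74 on endothelial arrays, and Pecam1 (CD31) at 4.64 to 5.12 on stromal and 7.68 to 8.86 on endothelial arrays. Ptprc (CD45), the antigen both gates exclude, lay at 4.91 to 7.42 on stromal and 8.63 to 10.94 on endothelial arrays and was called higher on the endothelial arrays, with a difference of -3.20 (limma adjusted p = 0.00591). A call needed a limma adjusted p under 0.05 over all probe sets tested and a log2 difference of at least 1, and in counts of genes each gene is represented by its brightest tested probe set by mean value. Stromal calls made up 30.5% and endothelial calls 16.0% of all 14009 genes tested. All 8 reticular stroma markers were higher on the stromal arrays. Among them Lepr and Foxc1 lay below the 40th percentile of every endothelial array and passed the filter only through stromal arrays. Of 8 endothelial markers 5 were tested, and 3 of them were higher on the endothelial arrays, Kdr (-2.08), Plvap (-3.58) and Esam (-5.01). The mean over all 8 was 5.39 to 5.65 on stromal and 6.95 to 7.37 on endothelial arrays, which did not overlap. Cdh5, Emcn and Tek lay below the 40th percentile of every array of both populations. All 7 megakaryocyte and platelet markers were higher on the arrays labelled endothelial, with a mean level of 5.67 to 8.89 on stromal and 14.06 to 14.22 on endothelial arrays. Endothelial 2 and 3 had a mean of 11.33 and 11.37 over 18 hybridisation-control probe sets, which read targets added to the hybridisation mix, and the other 5 arrays 9.51 to 9.75. Values for those 5 low-control arrays compare endothelial 1 alone with the stromal arrays, so their p-values rest on the spread of the stromal arrays. A fit with control level as a block gives the same differences by construction, since both arrays of the high level are endothelial, and differs only in its p-values. In sorted bulk samples, fewer cells of a type and less RNA per cell cannot be told apart. Whether the arrays of a population come from separate mice is not stated, so the p-values measure only the spread between these samples.

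Galectin-8 and galectin-3 transcripts differed most between the populations, in opposite directions. By one of its 2 probe sets Lgals8 was 5.86-fold higher on the stromal arrays, and Lgals3 was 6.12-fold higher on the endothelial arrays. Lgals3bp, which encodes a secreted ligand of galectins, was 2.08-fold higher on the stromal arrays, a call that rested on a small margin. Lgals1 was abundant in both populations and did not pass the test. Of the 13 probe sets, 11 passed the filter on dim probe sets (at least 3 arrays above their own 40th percentile) and were tested. By the call defined above, 2 of 11 were higher on the stromal arrays (18.2%, against 26.0% of all 29438 probe sets tested) and 1 of 11 on the endothelial arrays (9.09%, against 14.6%). Populations did not overlap in 5 of the 11 (45.5%, against 61.6% of all tested). With 11 probe sets, the stromal and endothelial counts are near these shares. The median difference was -0.48 over the 11 tested and -0.36 over all 13, while it was 0.067 over all probe sets tested and -0.31 over all probe sets other than controls.

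**Figure D1:**
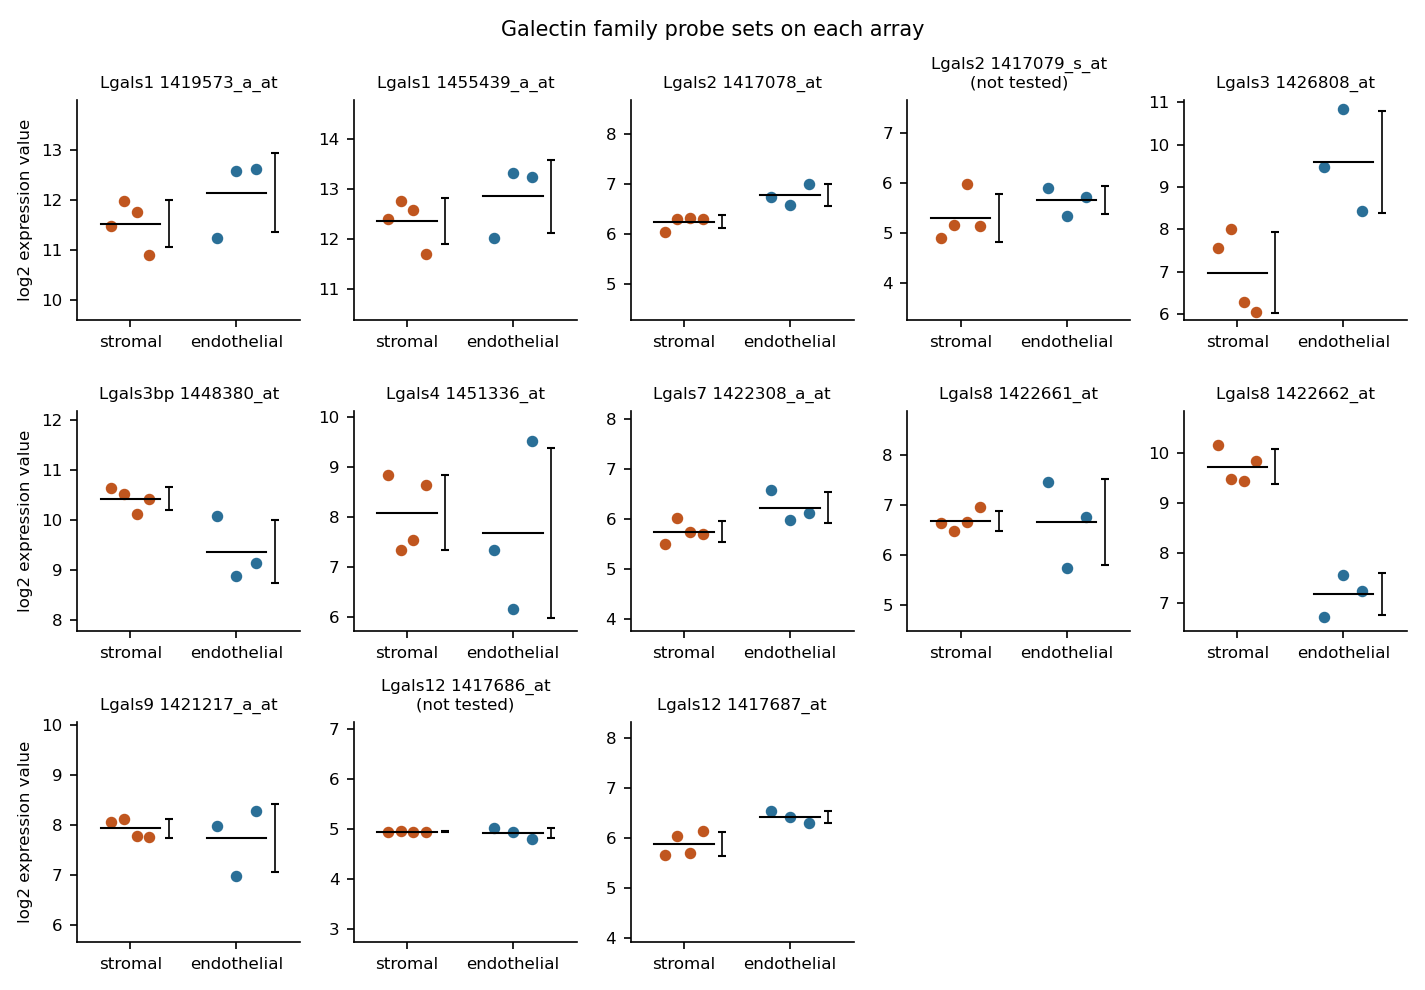
Log2 expression value (vertical axis, a scale of its own in each panel) of the 13 galectin family probe sets on the stromal (left, 4 arrays) and endothelial (right, 3 arrays) arrays. Points are arrays, horizontal lines are means and bars are 1 SD. The stromal points of Lgals8 1422662_at all lie above the endothelial points, and those of Lgals3 all lie below them.

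Galectin-1, the product of Lgals1, is a prototype galectin that works as a dimer. Probe set 1455439_a_at lay at 12.41, 12.76, 12.59 and 11.71 on stromal 1 to 4, and at 12.02, 13.33 and 13.24 on endothelial 1 to 3. Probe set 1419573_a_at lay at 11.47, 11.97, 11.75 and 10.90 on stromal 1 to 4, and at 11.23, 12.58 and 12.60 on endothelial 1 to 3. On every array both probe sets stood above the 95th percentile. In each probe set stromal 4 was the lowest array, endothelial 1 lay within the stromal range, and endothelial 2 and 3 lay above all stromal arrays. The differences were -0.49 (95% interval -1.38 to 0.39, limma adjusted p = 0.291) and -0.62 (-1.54 to 0.31, adjusted p = 0.213). The endothelial arrays that stood high in Lgals1 were those with high hybridisation controls. Among the 5 low-control arrays the differences had the other sign, 0.35 and 0.29 (limma adjusted p = 0.496 and 0.571). Without endothelial 1 they were -0.91 and -1.07, and the second passed the call (limma adjusted p = 0.0281). The part of the control level in this was not tested.

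Galectin-2 and galectin-7, the other prototype members, are known from the gut and from stratified epithelia. Lgals2 1417078_at averaged 6.24 ± 0.13 (SD, n = 4) on the stromal arrays and 6.77 ± 0.22 (n = 3) on the endothelial arrays. Its populations did not overlap, with a difference of -0.53 (95% interval -0.95 to -0.11) and a limma adjusted p of 0.0363, which is short of the required size. The second Lgals2 probe set, 1417079_s_at, spanned 4.90 to 5.99 on stromal and 5.35 to 5.91 on endothelial arrays and was too dim to be tested. Lgals7 spanned 5.51 to 6.03 on the stromal and 5.98 to 6.58 on the endothelial arrays, which overlap, with a difference of -0.48 (-0.98 to 0.02, adjusted p = 0.0854). Differences of this size and sign were common among dim probe sets. The median difference was -0.38 over the 13872 tested probe sets with a mean under 7 and -0.50 over the 15599 probe sets set aside as dim.

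Galectin-3, the chimera-type member, is known as the Mac-2 antigen of macrophages. Lgals3 lay at 7.55, 8.01, 6.29 and 6.05 on stromal 1 to 4, and at 9.48, 10.85 and 8.44 on endothelial 1 to 3. Every endothelial array lay above every stromal array, although the gap between stromal 2 and endothelial 3 was small beside the spread within each population. Lgals3 averaged 6.97 ± 0.95 (SD, n = 4) on stromal and 9.59 ± 1.21 (n = 3) on endothelial arrays, a difference of -2.61 (95% interval -4.14 to -1.08, limma adjusted p = 0.0107). Endothelial 1 alone against the stromal arrays gave -2.50, with a limma adjusted p of 0.0371 among the 5 low-control arrays and of 0.0972, which misses the threshold, with the control level as a block. Without both stromal 4 and endothelial 2 it was -1.68 (limma adjusted p = 0.0506).

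Transcripts of several blood lineages followed Lgals3 on some of the arrays but not on all. The mean over 9 neutrophil markers was 10.09, 10.00, 7.84 and 8.51 on stromal 1 to 4, and 11.86, 12.55 and 9.54 on endothelial 1 to 3. Stromal 1 and 2 were thus the high stromal arrays in both measures, and endothelial 2 was the highest and endothelial 3 the lowest of the endothelial arrays, although the populations overlapped in the neutrophil mean. The mean over 6 pan-leukocyte markers was 5.52 to 7.77 on stromal arrays and 10.16 to 11.37 on endothelial arrays, with endothelial 2 highest and endothelial 3 lowest once more. Over 8 monocyte and macrophage markers it was 5.86 to 6.47 on stromal and 7.14 to 7.79 on endothelial arrays. Of these markers, C1qb lay below the 40th percentile of every array and Adgre1 below that of every stromal array. Over 6 B lineage markers the mean was 6.01 to 7.07 on stromal and 7.71 to 9.60 on endothelial arrays. It too was highest on endothelial 2 and, among endothelial arrays, lowest on endothelial 3. The means of these lists were lowest on stromal 3, whereas Lgals3 was lowest on stromal 4. The megakaryocyte and platelet mean ran otherwise. It was 6.57, 5.93, 5.67 and 8.89 on stromal 1 to 4, and 14.22, 14.06 and 14.19 on endothelial 1 to 3. Higher on the endothelial arrays were 5 of 9 neutrophil (55.6%) and 5 of 6 pan-leukocyte markers (83.3%), against 16.0% of all genes. So were 4 of 6 tested B lineage, 2 of 3 tested T and NK and 2 of 3 tested erythroid markers (66.7% each). Of 7 tested monocyte and macrophage markers, 3 were higher on the endothelial arrays (42.9%) and 1 on the stromal arrays (14.3%, against 30.5%). Both gates exclude CD45+ and lineage-positive cells, the cells these markers belong to. The part of these cells in the Lgals3 difference was not tested. The 3 genes nearest to Lgals3 in pattern among 14009, by the root mean square difference of values centred over the 7 arrays, were Csf2rb, the shared beta chain of the IL-3, IL-5 and GM-CSF receptors (0.282), Cd53, a leukocyte tetraspanin (0.321), and Nup210, a nuclear pore protein (0.328). Cd53 is also among the 6 pan-leukocyte markers above. These likeness values describe 7 arrays that share the population difference.

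**Figure D2:**
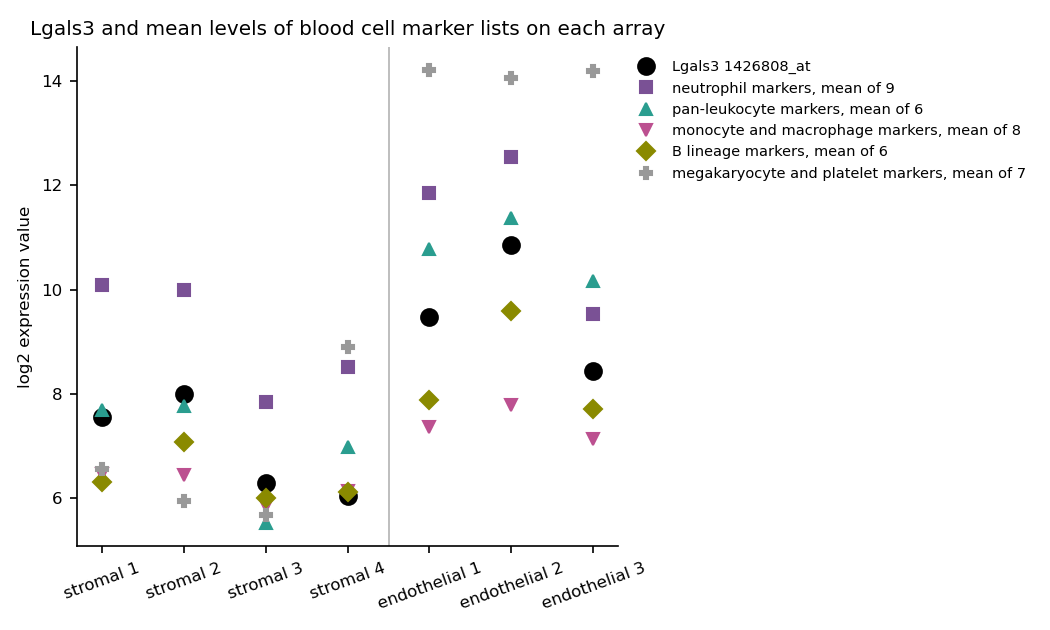
Log2 expression value (vertical axis) of Lgals3 and mean log2 expression value of 5 blood cell marker lists on each of the 4 stromal (left) and 3 endothelial (right) arrays. Lgals3 is highest on endothelial 2 (10.85) and lowest on stromal 4 (6.05). The neutrophil mean is highest on endothelial 2 (12.55) but lowest on stromal 3 (7.84), and the megakaryocyte and platelet mean is highest on endothelial 1 (14.22).

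Galectin-8, a tandem-repeat galectin, binds integrins and marks damaged endosomes for autophagy. Its probe set 1422662_at lay at 10.17, 9.48, 9.44 and 9.85 on stromal 1 to 4, and at 6.73, 7.56 and 7.25 on endothelial 1 to 3. The populations were far apart, with stromal 3 as the lowest stromal and endothelial 2 as the highest endothelial array. The means were 9.73 ± 0.34 (SD, n = 4) on stromal and 7.18 ± 0.42 (n = 3) on endothelial arrays, a difference of 2.55 (95% interval 1.92 to 3.18, limma adjusted p = 1.57e-04). This call held in all 22 alternatives, with the lowest difference, 1.29, from averaging both Lgals8 probe sets. The second probe set, 1422661_at, did not show this difference. It lay at 6.65, 6.49, 6.67 and 6.97 on stromal 1 to 4, and at 7.47, 5.75 and 6.76 on endothelial 1 to 3. The stromal arrays lay within the endothelial range, and the difference was 0.034 (-0.83 to 0.90, limma adjusted p = 0.944). The Lgals8 difference thus holds for 1 probe set of 2. Both probe sets carry the same source accession in the platform annotation, and which transcript forms each reads was not examined.

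Galectin-9, also a tandem-repeat galectin, is a known ligand of TIM-3 (Havcr2). Lgals9 lay at 8.06, 8.10, 7.77 and 7.76 on stromal 1 to 4, and at 7.98, 6.97 and 8.27 on endothelial 1 to 3. Endothelial 2 was the lowest array and endothelial 3 the highest, and the stromal arrays lay between them. The difference was 0.18 (95% interval -0.54 to 0.91, limma adjusted p = 0.629), and it had the other sign after a second quantile normalization (-0.42) and cyclic loess (-0.38). Nearest to Lgals9 in pattern were Cpt2 (0.103), Mcat (0.119) and Srgap3 (0.131). For Lgals1 1455439_a_at the nearest were Rpp21 (0.176), Irf2 (0.193) and B9d2 (0.198).

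Galectin-4, a tandem-repeat galectin of the intestinal epithelium, varied more within the populations than between them. Lgals4 lay at 8.83, 7.33, 7.54 and 8.63 on stromal 1 to 4, and at 7.34, 6.16 and 9.52 on endothelial 1 to 3. Endothelial 2 held the lowest and endothelial 3 the highest value of all arrays. The difference was 0.41 (95% interval -1.34 to 2.16, limma adjusted p = 0.656). It was 1.33 without endothelial 3 and -0.34 without endothelial 2, and it also had the other sign after a second quantile normalization (-0.020) and cyclic loess (-0.17).

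Galectin-12 is known as the galectin of adipocytes. Lgals12 1417687_at lay between 5.65 and 6.14 on the stromal arrays and between 6.30 and 6.54 on the endothelial arrays. The populations did not overlap, but the difference of -0.54 (95% interval -0.98 to -0.09, limma adjusted p = 0.0423) was short of the required size and close to the median of dim probe sets. Probe set 1417686_at stayed between 4.81 and 5.02 on all 7 arrays, below the 40th percentile of each, and was not tested. The adipocyte markers went another way: 4 of the 5 tested passed the call on the stromal side (80.0%, against 30.5% of all genes). The mean over all 6 on the array was 10.52 to 10.70 on the stromal and 6.41 to 7.27 on the endothelial arrays. This mean includes Lep, which lay below the 40th percentile of every array and was not tested.

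Lgals3bp encodes a secreted glycoprotein that galectin-1 and galectin-3 bind and is no galectin itself. It lay at 10.64, 10.51, 10.11 and 10.42 on stromal 1 to 4, and at 10.07, 8.88 and 9.14 on endothelial 1 to 3. All stromal arrays lay above all endothelial arrays, but stromal 3 and endothelial 1 were nearly level. The means were 10.42 ± 0.23 (SD, n = 4) on stromal and 9.36 ± 0.63 (n = 3) on endothelial arrays, a difference of 1.06 (95% interval 0.36 to 1.76, limma adjusted p = 0.0176). The call was lost in 9 of 22 alternatives. Among them the difference was 0.66 after a second quantile normalization, 0.59 after cyclic loess, 0.82 without endothelial 2 and 0.35 among the 5 low-control arrays (limma adjusted p = 0.131, 0.214, 0.0497 and 0.287).

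**Figure D3:**
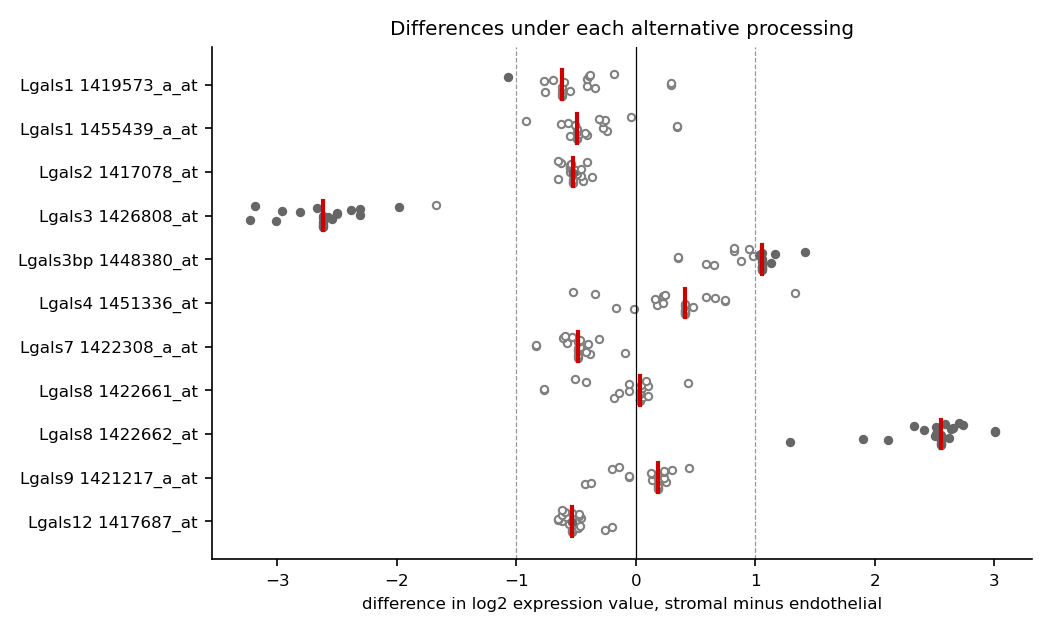
Difference in log2 expression value, stromal minus endothelial (horizontal axis), of the 11 tested galectin family probe sets as reported (red bar) and under each alternative (points). Filled points passed the call, open points did not, and dashed lines mark a difference of 1 either way. In the row of Lgals8 1422662_at the lowest point, 1.29, is the average of both Lgals8 probe sets, and the others lie at 1.90 or above. The points of Lgals3bp reach down to 0.35.

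**Figure D4:**
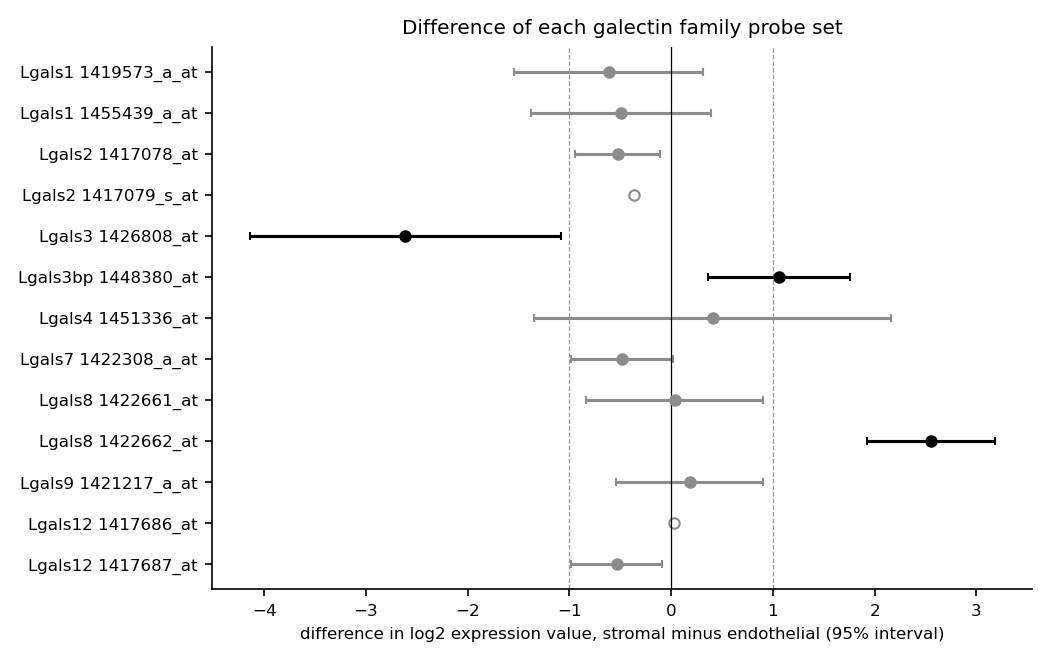
Difference in log2 expression value, stromal minus endothelial (horizontal axis), for the 13 galectin family probe sets, with 95% limma intervals. Black points passed the call, grey points did not, and open points were too dim to be tested. Dashed lines mark a difference of 1 either way, and Lgals8 1422662_at (2.55) and Lgals3 (-2.61) are the points farthest from 0.

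Of the 9 genes, 7 had an entry in the RefSeq promoter table (GRCm38.p6). The upstream sequences of the 3 called genes are shown because these are the members whose transcripts differed, and each ends at the base before the listed start. The windows are chr14:47373610-47373859 on the plus strand for Lgals3, chr13:12461739-12461988 on the minus strand for Lgals8 and chr11:118401960-118402209 on the minus strand for Lgals3bp. Capitals mark matches to 6 short motifs searched on both strands, which do not overlap in these windows. The motif searched for GATA factors was AGATAA, for RUNX factors it was TGTGGT, and for SP1 it was GGGCGG. For the AP-1 complex the search used TGACTCA, for the factor PU.1 it used GAGGAA, and for the C/EBP family it used TTGCAAT.
Lgals3: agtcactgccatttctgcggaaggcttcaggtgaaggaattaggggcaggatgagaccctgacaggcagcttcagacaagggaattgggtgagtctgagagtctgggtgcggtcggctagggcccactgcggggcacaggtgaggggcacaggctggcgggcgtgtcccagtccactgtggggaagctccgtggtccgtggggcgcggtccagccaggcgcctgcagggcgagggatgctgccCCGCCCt
Lgals8: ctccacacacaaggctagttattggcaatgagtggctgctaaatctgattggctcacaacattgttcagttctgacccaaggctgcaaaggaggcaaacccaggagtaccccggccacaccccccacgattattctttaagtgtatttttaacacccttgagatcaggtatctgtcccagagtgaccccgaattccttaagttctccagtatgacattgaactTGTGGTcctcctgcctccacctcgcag
Lgals3bp: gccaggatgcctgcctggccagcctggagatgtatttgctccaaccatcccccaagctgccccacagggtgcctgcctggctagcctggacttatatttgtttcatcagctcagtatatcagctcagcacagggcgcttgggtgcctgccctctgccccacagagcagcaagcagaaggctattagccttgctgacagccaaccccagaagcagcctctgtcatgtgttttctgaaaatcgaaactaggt
The Lgals3 window, 66.0% G and C against a median of 52.4% over all 32851 entries, held GGGCGG on the opposite strand close to the start, a motif found in 32.7% of all windows. The Lgals8 window held TGTGGT, found in 14.0% of all windows, and the Lgals3bp window held none of the 6. AGATAA was found in 9.99%, GAGGAA in 23.3%, TGACTCA in 4.46% and TTGCAAT in 1.96% of all windows. A match describes the letters only.

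The galectin-related gene Lgalsl, which lies outside the 9 members, differed by more than any of them. Its product resembles galectins but lacks the residues for sugar binding. Lgalsl 1424318_at lay at 9.87, 9.70, 9.86 and 9.91 on stromal 1 to 4, and at 13.30, 12.97 and 13.09 on endothelial 1 to 3. The populations were far apart and the spread within each was small. The difference was -3.29 (95% interval -3.67 to -2.90, limma adjusted p = 2.92e-06), and the second probe set, 1451313_a_at, gave -3.10. Megakaryocyte and platelet markers stood high on the same 3 arrays, and their part in this was not tested. Grifin, which encodes a galectin-related protein of the lens, differed by -0.57 and was not called. Lgals6 had no probe set with a single symbol of that name.

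Enzymes that build or cap the sugar chains galectins bind were called in both directions. Of 29 genes listed, 28 were on the array and 27 tested: 11 were higher on the stromal arrays (40.7%, against 30.5% of all 14009 genes), 4 on the endothelial arrays (14.8%, against 16.0%) and 12 passed neither way. B4galt2 and B4galt4 passed the filter only through stromal arrays, and Gcnt1 and B3gnt8 only through endothelial arrays. The median difference was 0.85, and 0.19 over all genes. Mgat5, which starts the N-glycan branch that carries preferred galectin ligands, was higher by 2.39 (limma adjusted p = 0.00750), a call that was lost with the control level as a block (2.44). Mgat2 and Man2a2, which act before it in the same pathway, were higher by 2.49 and 2.83. The sialyltransferase genes St3gal6 and St3gal3 were higher by 5.74 and 3.37. Probe sets disagreed for some of these genes: a second St3gal3 probe set was called the other way (-1.27), 2 of 4 tested St3gal6 probe sets were called, and other probe sets of Man2a2 (-0.44) and Mgat5 (0.67) were not called.

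The 4 enzyme genes called on the endothelial side act on O-glycans and polylactosamine. Gcnt1, which makes the core 2 branch of O-glycans, lay at 5.47, 5.10, 4.54 and 4.36 on stromal 1 to 4, and at 10.71, 10.79 and 10.78 on endothelial 1 to 3. The stromal values lay below the 40th percentile of their arrays, so neither a fold nor a difference is given. C1galt1, the core 1 synthase gene, differed by -1.79 and Gcnt2, which branches polylactosamine, by -1.11, although a second tested Gcnt2 probe set stood at 0.73. The Gcnt2 call was lost with the control level as a block and among the 5 low-control arrays, at -0.93 in both. B3gnt8, which extends polylactosamine on N-glycans, lay at 4.82 to 5.48 on stromal arrays, below the 40th percentile of each, and at 5.87 to 6.74 on endothelial arrays, and its call was lost after cyclic loess. C1galt1c1, the chaperone gene that C1galt1 needs, was higher on the stromal arrays by 1.86. St6gal1, whose alpha-2,6 sialylation blocks galectin-1 binding, differed by 1.61 (95% interval 0.19 to 3.04) and missed the threshold (limma adjusted p = 0.0519). In the set without stromal 4 and endothelial 2 the list had 2 genes called on the endothelial side, and among the 5 low-control arrays it had 1. Gcnt1 and B3gnt8 did not pass the filter on those arrays.

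Known glycoprotein partners of galectins passed the call in both directions. Of 36 listed, all on the array, 29 were tested: 11 were higher on the stromal arrays (37.9%, against 30.5% of all genes), 10 on the endothelial arrays (34.5%, against 16.0%) and 8 passed neither way. Lama1 passed the filter only through stromal arrays and Cd2 only through endothelial arrays. The median of 0.20 was close to the 0.19 over all genes. The laminin chain genes Lamb1 and Lama4 were higher on the stromal arrays by 5.65 and 4.70, as were the integrin gene Itga1 (4.35), Nrp1, a galectin-1 receptor (5.25), and Mpzl1 (4.39). Only 2 of 4 tested Lamb1 probe sets were called, the lowest at -0.0037, while all 4 of Nrp1 were. The leukocyte surface genes Ptprc (CD45), Cd7 and Itga4 were higher on the endothelial arrays, with differences of -3.20, -2.74 and -2.63. So were Cd44 (-2.96) and the transferrin receptor gene Tfrc (-2.92). Cd44 was bright in both populations, at 10.00 to 10.65 on stromal and 13.21 to 13.69 on endothelial arrays. With hybridisation-control level as a block, 5 genes of the list were called on the endothelial side, and Ptprc, Tfrc and Itga4 were not among them. Tfrc also lost its call without both stromal 4 and endothelial 2. Some partners are also in the marker lists given above. Ptprc is in the pan-leukocyte list, Cd2 in the T and NK list and Kdr in the endothelial list, and all of these were called on the endothelial side. Igll1 and Vpreb1, which were not called, are in the B lineage list.

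The pre-B cell receptor genes and the integrins that galectin-1 is known to cluster did not pass the call, apart from Itga4. Vpreb1 lay at 6.20, 8.57, 7.08 and 6.79 on stromal 1 to 4, and at 9.13, 12.18 and 6.92 on endothelial 1 to 3. The populations overlapped and endothelial 2 stood apart. Its difference was -2.25 (limma adjusted p = 0.117), and that of Igll1, which encodes the lambda5 chain bound by galectin-1, was -1.08 (adjusted p = 0.162). Both also belong to the B lineage list. Of its 6 tested markers, 4 were higher on the endothelial arrays (66.7%, against 16.0% of all genes): Cd79a, Cd79b, Pax5 and Cd37. Itgb1 differed by -0.97 (95% interval -1.53 to -0.40, limma adjusted p = 0.0109) and Itga5 by -0.48 (adjusted p = 0.0414), both short of the required size. Havcr2, the receptor gene of galectin-9, was too dim to be tested, as were Thy1, Itgam, Mcam, Pdpn, Alcam and Tnfrsf9.

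**Figure D5:**
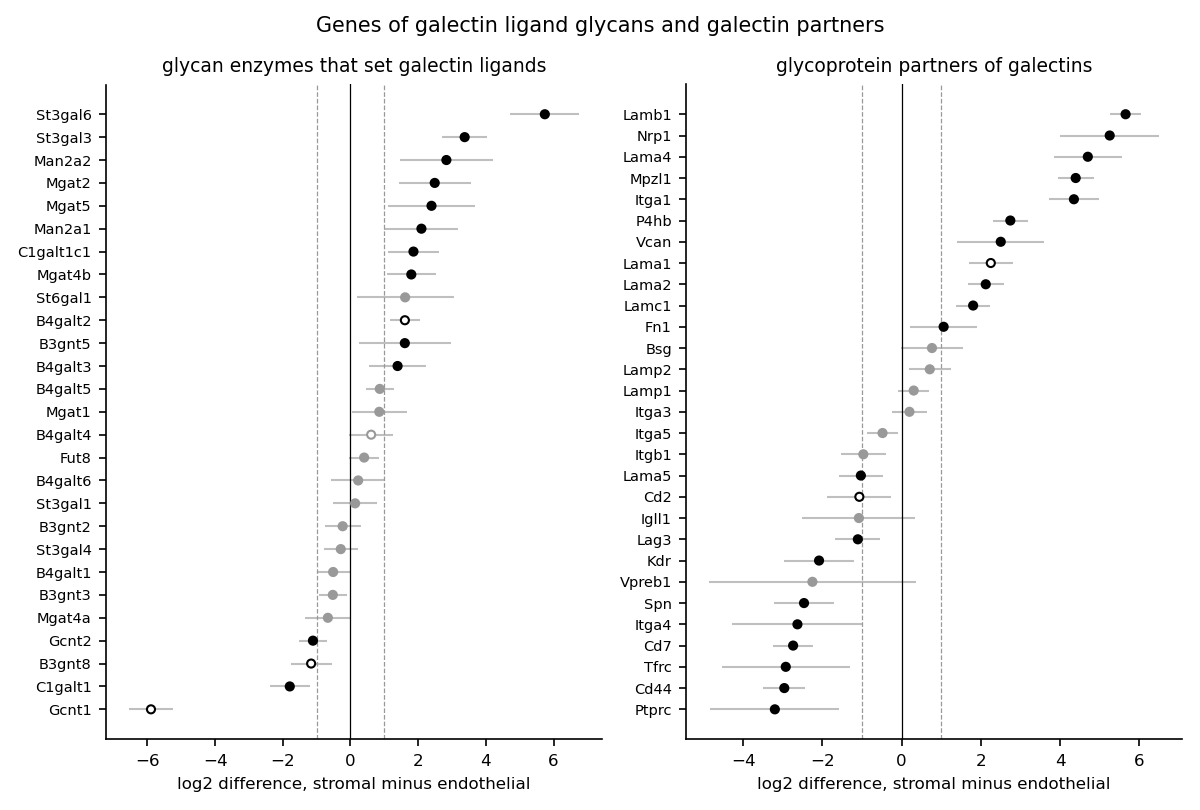
Difference in log2 expression value, stromal minus endothelial (horizontal axes), of the 27 tested genes of glycan enzymes (left) and the 29 tested galectin partners (right), each by 1 probe set with its 95% limma interval. Black points passed the call and grey points did not, and open points are genes below the 40th percentile on every array of one population, whose position is no measured difference. St3gal6 (5.74) lies at the upper end of the left panel, and Lamb1 (5.65) and Ptprc (-3.20) at the ends of the right.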

How the data were processed

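Per the submitters' processing notes, the authors made the deposited log2 expression values in Expression Console 1.1 by RMA, a method made up of background correction, quantile normalization and probe summary. Which arrays were normalized together is not given in the sources used here. Gene symbols came from a platform annotation of 34945 probe sets with 1 symbol, 932 with several and 9160 with none, beside 64 controls. All 9 members matched RefSeq by Entrez identifier. Depth does not apply to arrays, and their number (4 and 3) limits the precision. For the beta-actin control, the 3' probe set stood above the 5' probe set by 1.30 to 1.79 on stromal and 0.65 to 1.49 on endothelial arrays. For the Gapdh control it did so by 3.07 to 3.51 and 2.37 to 3.50. The part of this in disagreements between probe sets of a gene was not tested.

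The 29438 probe sets with at least 3 arrays above their own 40th percentile entered a limma model without covariates (lmFit, then eBayes; limma 3.58.1, R 4.3.3), and p-values were adjusted by Benjamini-Hochberg over all of them. List genes were each taken by the tested probe set with the highest mean, and up to 5 called genes per direction were named, along with further list genes (C1galt1c1, St6gal1, Vpreb1, Igll1, Itgb1, Itga5 and Havcr2) chosen after their values were seen for their known link to galectin-1, galectin-9 or a named gene. Likeness was computed for Lgals1, Lgals3 and Lgals9. The procedure was tested on simulated data. Members, lists and tests were chosen with earlier results of these data known. Alternatives covered the filter, probe set choice, scaling, eBayes options, array weights, blocks and arrays left out. The alternatives for the gene lists, the motif search and the bound of 7 for dim probe sets were chosen after seeing the data.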

Additional observations from a re-analysis of the deposited data

Results flagged for a closer look

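Among the 13 stromal groups of 4 arrays, 2 held an array whose gap to the nearest of the others exceeded Dixon's critical value as a share of the range. Chance flags about 1 in 20 groups. In Lgals2 1417078_at stromal 1 lay at 6.04 against 6.30 on the nearest stromal array. In Lgals12 1417686_at stromal 2 lay at 4.97 against 4.94 on the nearest stromal array, a gap within a probe set below the 40th percentile of all arrays.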

How the results depend on the processing

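Of 231 member differences recomputed under 22 alternatives, 195 kept their direction and their side of the threshold, 22 had the other sign, 11 lost the call and 3 gained it. Lgals3bp made up 9 of the lost calls and Lgals3 the other 2. The count of galectin probe sets higher on the stromal arrays, 2, was 1 after a second quantile normalization, after cyclic loess, with array weights, with the hybridisation-control block, among the 5 low-control arrays and without both stromal 4 and endothelial 2, and 1 to 2 with single arrays left out. The count higher on the endothelial arrays, 1, was 3 with adjusted p alone, 0 with the hybridisation-control block and without both stromal 4 and endothelial 2, and 1 to 2 with single arrays left out. Over all probe sets, 7649 stromal and 4292 endothelial calls (64.1% of calls stromal) became 6114 and 5672 after a second quantile normalization (51.9%), which moved the median difference to -0.13. With adjusted p alone 8579 were higher on the endothelial arrays. Fewer features were tested per gene, giving 4324 and 2258 by the highest-mean probe set and 3386 and 1887 by the mean of probe sets.

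None of the members whose sign changed was called with the settings reported above. For Lgals1 1419573_a_at and 1455439_a_at it was 0.29 and 0.35 with the hybridisation-control block and among the 5 arrays. Lgals4 stood at -0.020 after a second quantile normalization, -0.17 after cyclic loess and -0.53 without both stromal 4 and endothelial 2. Lgals9 stood at -0.42, -0.38 and -0.14 under these 3 settings, and at -0.058 with the block and among the 5 arrays. Lgals8 1422661_at stood at -0.18 after a second quantile normalization, -0.14 with array weights, -0.057 with the replicate block, -0.77 with the hybridisation-control block and among the 5 arrays, and -0.51 without both stromal 4 and endothelial 2. Single arrays left out gave -0.34 to 1.33 for Lgals4, -0.42 to 0.44 for Lgals8 1422661_at and -0.20 to 0.45 for Lgals9. Glycan enzymes called on the endothelial side, 4, were 1 among the 5 arrays and 2 without both arrays, where fewer passed the filter, and partners called there, 10, were 5 with the hybridisation-control block. Other causes were not tested.

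The correlations of deviations of arrays with the same replicate number were -0.12, 0.0017 and 0.12. Arrays of different numbers were not compared in this way, so these values cannot decide whether the numbers pair the arrays. With the replicate block 7043 and 4211 probe sets were called, and the galectin counts stayed at 2 and 1. The block gave the same differences as leaving out stromal 4. Its limma adjusted p was 0.00408 for Lgals3 (0.0287 without stromal 4), 0.0392 for Lgals3bp (0.0401) and 0.00708 for Lgals8 1422662_at (9.53e-04). Arrays left out singly gave 6860 to 8391 stromal and 3265 to 4352 endothelial calls.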

Other observations

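Genes that act where galectins mark damaged membranes were also listed. Of 9 genes, 8 were tested, with 0 stromal calls (against 30.5% of all genes) and 2 endothelial calls by limma (25%, against 16.0%), and the median difference was -0.28 against 0.19 over all genes. At an unadjusted p under 0.05 the counts were also 0 and 2. Atg16l1, which encodes a part of the autophagy conjugation machinery, averaged 9.82 ± 0.15 (SD, n = 4) on stromal and 11.23 ± 0.22 (n = 3) on endothelial arrays, a difference of -1.41 with a limma adjusted p of 4.86e-04. Gabarapl2, an ATG8 family gene, differed by -1.17 (limma adjusted p = 0.0119), although its other tested probe set stood at -0.75 and was not called. Calcoco2, which in human cells encodes the autophagy receptor that binds galectin-8, was too dim to be tested.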
